A study of Argopecten irradians irradians with 6 samples.

Results

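miR-184 is a microRNA (miRNA), a short RNA that guides the repression of the messenger RNAs it pairs with, and it was measured here by small-RNA sequencing in bay scallops (Argopecten irradians irradians), in the adductor muscle, which shuts the shell. The members were all rows of the deposited count table whose name, after the species prefix, is miR-184 with any letter or arm suffix. They were 81 of 5446 rows, and after rows with identical counts in every library were merged they were 32 of 1005 distinct count profiles above 0. The 6 libraries came from orange muscle of QN Orange scallops (3 libraries) and white muscle of Bohai Red scallops (3 libraries), so colour and strain differ together. For each strain 9 muscles were taken and 3 were pooled per library, so the spread between libraries is a spread between pools. The columns of the table carry only letters: by inference G was read as QN Orange and B as Bohai Red, and every direction between the groups given here rests on that reading.

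miR-184 is one of the miRNAs that protostomes and vertebrates share. In vertebrates it is best known from the cornea and lens epithelium, and in Drosophila from the female germ line and early embryo, where its loss disturbs egg production. A mature miRNA comes from one arm (5p or 3p) of a hairpin precursor, and its first bases, the seed, choose most of its targets. For miR-184 the guide is the 3p arm in the species in which it is well studied. By its title the study is about carotenoids that build up in orange adductor muscle, and the comparison asks whether a miRNA is more or less abundant there than in white muscle.

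Many names had identical or nearly identical counts in every library, so the same reads were taken to be counted under many species' names. The totals over all rows, 85674751 to 152002629 counts per library, were therefore not read as numbers of reads. With only the most abundant row of each family kept, the totals were 2092825 to 4001516. The muscle miRNAs miR-1 and miR-133 together made up 297797 to 401769 per 1000000 of these counts in orange libraries and 441911 to 466957 per 1000000 in white libraries. Marker miRNAs of other tissues differed between libraries, and not all in the same ones. The 6 families of the epithelial and sensory list (miR-8, miR-200, miR-141, miR-263, miR-183 and miR-96) summed to 5412, 1954 and 2639 per 1000000 in orange replicates 1 to 3, and to 9484, 1450 and 1547 per 1000000 in white replicates 1 to 3. The 4 neural families (miR-124, miR-9, miR-219 and miR-137) summed to 771, 15.3 and 20.8 per 1000000 in orange replicates 1 to 3, against 73.0, 28.4 and 28.7 per 1000000 in white replicates 1 to 3. Among orange libraries all 3 neural families tested were highest in replicate 1, but among white libraries this held for miR-9 alone: miR-124, known from neurons, had 19.0, 19.2 and 20.6 TMM-scaled counts per 1000000 in white replicates 1 to 3. The 5 gut and digestive gland families (miR-375, miR-194, miR-192, miR-215 and miR-122) had their lowest sum in replicate 1 of both groups, at 29.5, 33.9 and 137 per 1000000 in orange replicates 1 to 3 and 12.2, 13.8 and 19.6 per 1000000 in white replicates 1 to 3. The ciliated cell families (miR-34, with miR-449 at 0 counts or with no row) summed to 200, 175 and 257 per 1000000 in orange replicates 1 to 3, against 161, 137 and 135 per 1000000 in white replicates 1 to 3. In bulk muscle, fewer cells of a type and less RNA per cell cannot be told apart.

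The 81 names carry 77 species prefixes. The suffix 3p stands on 39 of them, no arm is given for 42, and 0 are named 5p, although 1420 rows of the whole table carry a 5p name. A letter a follows 4 names and a letter b another 4. Read by the species codes of miRBase, the public registry of miRNA names, 39 names belong to vertebrates and 42 to other animals. No sequence of these names was used here, so the names are compared by their counts.

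The 32 profiles fell into steps. The highest step held 18 profiles with 44 names, of which 38 belong to animals other than vertebrates and 6 to bony fishes such as carp, zebrafish and medaka. Its most abundant profile was lgi-miR-184, the name from the limpet Lottia gigantea, which is a mollusc like the scallop, and it had the same counts as the name from the flour beetle, tca-miR-184-3p. lgi-miR-184 had 63634, 16614 and 38281 counts in orange replicates 1 to 3, and 63792, 34537 and 30621 counts in white replicates 1 to 3. Orange replicate 2 was the lowest and white replicate 1 the highest, and the groups overlapped. Of the other 17 profiles of this step, 11 lay at 99.4% to 100.1% of the limpet count in every library and 6 at 97.9% to 98.8%. In those 6, orange replicate 1 was the lowest library, at 97.9% to 98.1%, against 98.6% to 98.8% in the other 5 libraries. The middle step held 7 profiles with 29 names, all 29 of vertebrates, and the third step was 1 profile shared by the 2 frog names xla-miR-184-3p and xtr-miR-184.

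**Figure D1:**
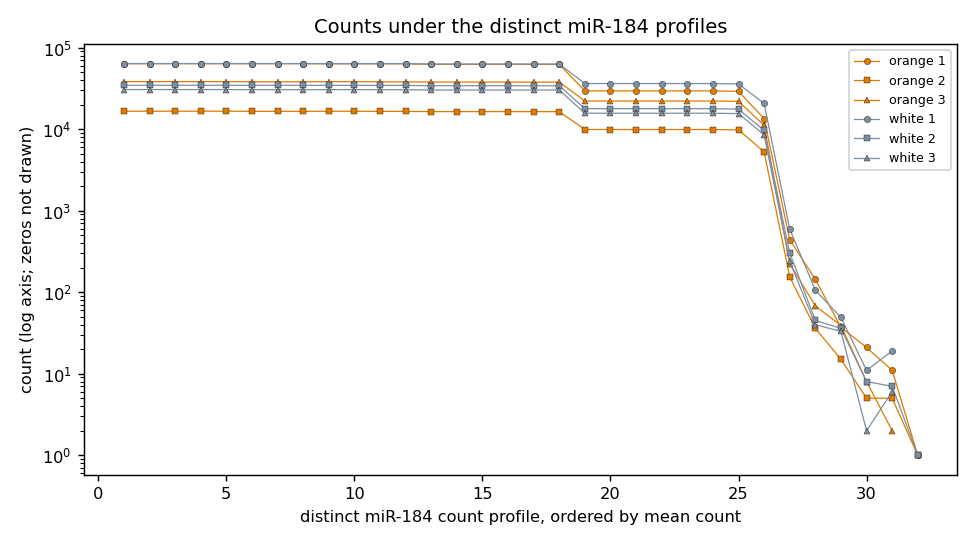
Counts (log axis, zeros not drawn) under the 32 distinct miR-184 count profiles, ordered by mean count, with 1 line per library (orange libraries in orange, white libraries in grey). Profiles 1 to 18 form the highest step, 19 to 25 the middle step and 26 the frog profile, and 6 profiles lie far below, from 326 counts per library on average down to 1 count or 0.

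The middle step, represented by the human name hsa-miR-184, had 29476, 9899 and 22140 counts in orange replicates 1 to 3, and 36286, 17834 and 15691 counts in white replicates 1 to 3. As a share of the limpet count this was 46.3% in orange replicate 1 (95% Wilson interval 45.9% to 46.7%), 59.6% in orange replicate 2 (58.8% to 60.3%) and 57.8% in orange replicate 3 (57.3% to 58.3%). In white replicates 1 to 3 it was 56.9% (56.5% to 57.3%), 51.6% (51.1% to 52.2%) and 51.2% (50.7% to 51.8%). Orange replicate 1 was the lowest of all 6 libraries and its interval, which covers counting error only, met no other. Share here means the ratio of 2 rows, while the intervals treat the human count as a part of the limpet count. That was not established, and cin-miR-184 of the highest step reached 100.1% of the limpet count in orange replicate 2. Orange libraries averaged 54.6% ± 7.21 and white libraries 53.3% ± 3.15 (SD, n = 3 each), and the difference of 1.33 percentage points was smaller than the spread between libraries (exact two-sided permutation p = 0.8, adjusted p = 1 over 28 profiles). The overlap rested on orange replicate 1: without it both remaining orange libraries lay above the 3 white ones, and the difference was 5.45 percentage points. Without orange replicate 2 it was -1.18, without orange replicate 3 -0.30, and without both libraries numbered 1 it was 7.27.

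The frog profile stood at 21.1%, 31.7% and 29.0% of the limpet count in orange replicates 1 to 3, against 32.5%, 27.9% and 27.8% in white replicates 1 to 3. The groups overlapped, and their means of 27.3% ± 5.49 in orange and 29.4% ± 2.66 in white muscle did not differ beyond the spread (exact two-sided permutation p = 0.8, adjusted p = 1). Again orange replicate 1 was the lowest library, while white replicate 1 was the highest of the 6. Set against the human name, a ratio chosen after its values were seen, the frog name stood at 45.6%, 53.1% and 50.2% in orange replicates 1 to 3 and at 57.1%, 54.1% and 54.2% in white replicates 1 to 3. These groups did not overlap, with means of 49.6% ± 3.80 and 55.1% ± 1.69 in orange and white libraries (exact two-sided permutation p = 0.1, the smallest that 3 against 3 libraries allow). In the other named families, 22.4% of 495 ratios of a profile to its family's most abundant profile did not overlap either. The human name is not the most abundant profile of miR-184, and no such percentage was computed for ratios between lesser profiles.

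Of the 6 profiles far below the steps, api-miR-184b, from the pea aphid, was the most abundant, with 441, 154 and 224 counts in orange replicates 1 to 3 and 594, 303 and 239 counts in white replicates 1 to 3. It stood at 0.735% ± 0.175 of the limpet count in orange and 0.863% ± 0.0763 in white muscle, and the groups overlapped (exact two-sided permutation p = 0.3, adjusted p = 1). The annelid name cte-miR-184b had 144, 36 and 68 counts in orange replicates 1 to 3 and 106, 45 and 40 counts in white replicates 1 to 3. Its share was 0.226%, 0.217% and 0.178% in orange replicates 1 to 3, against 0.166%, 0.130% and 0.131% in white replicates 1 to 3. This was the 1 profile of 28 whose shares did not overlap between the groups (3.57%, beside the 22.4% in other families). These 2 percentages cannot be compared directly. Of the 28 profiles, 17 lie in the highest step and 7 in the middle step, with nearly equal counts within a step. For cte-miR-184b the means were 0.207% ± 0.0258 in orange and 0.142% ± 0.0206 in white muscle (exact two-sided permutation p = 0.1, the smallest possible, adjusted p = 1). At these counts the Wilson intervals of neighbouring libraries overlapped, for example 0.140% to 0.225% in orange replicate 3 and 0.137% to 0.201% in white replicate 1. The lamprey name pma-miR-184 had 37, 15 and 39 counts in orange replicates 1 to 3 and 49, 36 and 33 counts in white replicates 1 to 3. The remaining 3 names had means under 10 counts: oan-miR-184 of the platypus ranged from 2 to 21 counts, pxy-miR-184 of the diamondback moth from 2 to 19, and asu-miR-184-3p of the roundworm Ascaris from 0 to 1.

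**Figure D2:**
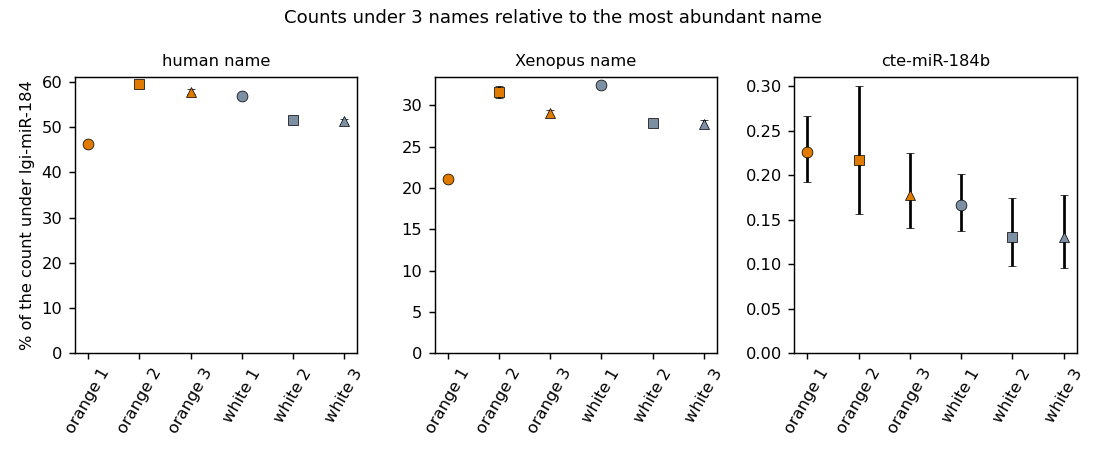
Counts under the human name, the frog (Xenopus) name and cte-miR-184b as a percentage of the count under lgi-miR-184 in each library, with orange libraries left of white ones and bars for 95% Wilson intervals. Orange replicate 1 is lowest for the human name (46.3%) and the frog name (21.1%), and for cte-miR-184b the 3 orange libraries lie at 0.178% to 0.226%, above the 3 white ones at 0.130% to 0.166%.

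With the limpet row standing for the family, miR-184 was among the most abundant miRNAs of the muscle. Among 491 families with counts, predicted miRNAs included, it ranked 6, 8 and 7 in orange replicates 1 to 3, and 6, 10 and 10 in white replicates 1 to 3. Among the 137 named families its ranks were 5, 7 and 6 in orange replicates 1 to 3, against 5, 8 and 8 in white replicates 1 to 3. Its share of the counts was 1.69%, 0.794% and 1.04% in orange replicates 1 to 3, and 1.59%, 1.01% and 0.967% in white replicates 1 to 3. Both libraries numbered 1 were the highest of their group, at 1.85 times the mean of the other 2 in orange and 1.61 times in white muscle. The group means were 1.17% ± 0.465 in orange and 1.19% ± 0.350 in white muscle (exact two-sided permutation p = 1).

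By mean share over the 6 libraries, miR-1 (15.3%), let-7 (6.50%), a regulator of developmental timing, and miR-71 (1.32%) came just before miR-184 (1.18%) among the named families. miR-67 (1.11%), miR-2 (0.812%) and miR-1985 (0.730%), which is known from molluscs and annelids, came just after it. miR-1 and let-7 were above miR-184 in 6 of 6 libraries, miR-71 in 4, miR-67 in 3, miR-1985 in 2 and miR-2 in 0. The order of miR-71, miR-184 and miR-67 was therefore not settled beyond the spread: miR-71 ranged from 1.14% to 1.51%, miR-184 from 0.794% to 1.69% and miR-67 from 0.709% to 1.47%. miR-67 separated by group, with 0.807% ± 0.111 in orange and 1.41% ± 0.0963 in white muscle, and miR-184 did not. Shares that do not overlap between the groups were found in 54 of the 142 fitted families (38%).

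**Figure D3:**
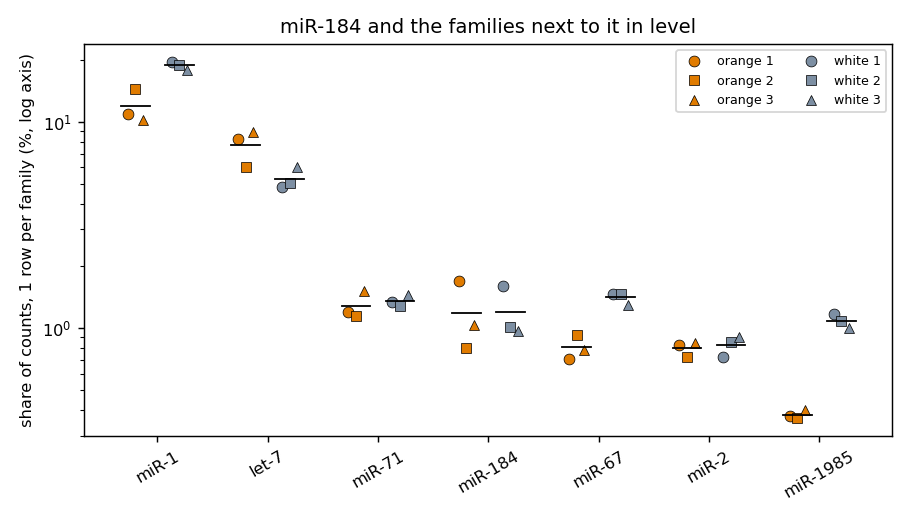
Share of the counts (%, log axis, 1 row per family) of miR-184 and of the 3 named families next above and below it, with orange libraries left of white ones, 1 symbol per replicate number and black lines for the group means. miR-184 spans 0.794% to 1.69% in orange and 0.967% to 1.59% in white muscle with replicate 1 highest in both, while miR-1, miR-67 and miR-1985 separate by group, as do 38% of 142 families.

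The difference between orange and white muscle was fitted over 142 families with 1 row each. On a scale of counts per 1000000 (CPM), with library sizes scaled by TMM (a trimmed mean of log ratios), miR-184 had 15048, 10292 and 11027 CPM in orange replicates 1 to 3, against 12631, 11044 and 9123 CPM in white replicates 1 to 3. The groups overlapped, with means of 12122 ± 2560 CPM over the orange libraries and 10933 ± 1756 CPM over the white ones (SD, n = 3 each). The log2 difference, orange minus white, was 0.15 (SE 0.258, 95% interval -0.45 to 0.75, adjusted p = 0.742, edgeR), and it did not pass the threshold of 0.05, which 13 of the 142 families (9.15%) passed. That number was 0 without white replicate 2, 0 without white replicate 3 and 20 without white replicate 1, and miR-184 passed in none of the fits without 1 library. Its sign depended on the scaling: it was -0.13 with DESeq2 size factors, -0.02 with library totals and -0.57 with upper-quartile factors, none of which passed. The median family moved with the scaling as well, and relative to that median miR-184 lay at -0.05 under TMM, -0.06 under DESeq2 size factors, -0.01 under library totals and -0.18 under upper-quartile factors. Without both libraries numbered 1 the log2 difference was -0.05 (SE 0.175, adjusted p = 0.883, edgeR), where 19 of 139 families (13.7%) passed.

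Fitted as single profiles among 644 merged rows, 29 of the 32 miR-184 profiles passed the filter on low counts, and 0 were called (0.621% of the merged rows were, by edgeR). At an unadjusted p under 0.05 by edgeR there were also 0, and no count over all merged rows is given for that threshold. The DESeq2 test called 0 of the miR-184 profiles, beside 34 of the 644 merged rows. For lgi-miR-184 the log2 difference was -0.45 (SE 0.278, adjusted p = 0.356 by edgeR), and all 18 profiles of the highest step lay at -0.45, a sign that turned with upper-quartile factors (lgi-miR-184 at 0.23) and without predicted miRNAs (0.29). The same counts of lgi-miR-184 gave 0.15 in the fit over families, so the 2 values are not separate results. Their TMM factors differed: orange replicate 3 had 0.94 over families and 1.29 over merged rows, and white replicate 1 had 1.26 and 0.94. The 7 vertebrate profiles of the middle step were all at -0.46, and the frog profile at -0.62 (SE 0.329, adjusted p = 0.318). The median merged row lay at -0.41, so lgi-miR-184 was at -0.04 relative to it. cte-miR-184b was at 0.07 (SE 0.522, adjusted p = 0.925) and api-miR-184b at -0.70 (SE 0.472, adjusted p = 0.358). Without both libraries numbered 1, 18 miR-184 profiles passed, with lgi-miR-184 at -0.64 (SE 0.150, adjusted p = 0.0406, edgeR). The human profile (adjusted p = 0.106, edgeR) and the frog profile (adjusted p = 0.101, edgeR) did not pass. Profiles within a step have nearly the same counts, so the 18 are not separate signals. In that fit 173 of 632 merged rows (27.4%) passed and the median row lay at -0.45, so that lgi-miR-184 was at -0.19 relative to it, and the fit over families on the same 4 libraries did not call miR-184.

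A ratio of 2 families taken inside one library is free of the scaling. Against miR-1, a conserved muscle miRNA, the log2 ratio of miR-184 was -2.69, -4.18 and -3.30 in orange replicates 1 to 3, and -3.61, -4.22 and -4.21 in white replicates 1 to 3. The ratio to miR-133, the other abundant muscle miRNA, averaged -4.32 ± 0.66 in the orange libraries and -4.53 ± 0.50 in the white ones (SD, n = 3 each). For miR-100, which is encoded with let-7 in many animals, it was -4.24 ± 0.53 in orange and -3.54 ± 0.43 in white muscle, and for let-7 it was -2.77 ± 0.43 in orange libraries and -2.18 ± 0.54 in white ones. The ratio to miR-71 averaged -0.19 ± 0.60 in orange libraries and -0.22 ± 0.42 in white ones, 0.03 apart. The ratio to miR-2 averaged 0.49 ± 0.48 in orange and 0.50 ± 0.57 in white muscle, and that to miR-67 averaged 0.48 ± 0.74 in orange and -0.28 ± 0.35 in white muscle. In all 8 ratios the groups overlapped, and the exact two-sided permutation p ran from 0.2 to 1 (adjusted 0.6 to 1). The eighth, to miR-10, a Hox cluster miRNA, was 2.19 in white replicate 1 and 7.58 to 8.11 in the other 5 libraries. Replicate 1 had the highest ratio of its group for 7 of these 8 families in white muscle, all but miR-10, and for all 8 in orange muscle.

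Among the 31 other named families with a mean of at least 1000 counts, the ratio of miR-184 to the family did not overlap between the groups for 8 (25.8%), where the same held for 41.7% of the 465 pairs that such families form without miR-184. For 3 of the 8, miR-1175, miR-193 and miR-1985, the ratio was higher in orange muscle, with log2 differences of 1.32, 0.88 and 1.46. For the others, miR-125, miR-281, miR-46, miR-92 and miR-99, the ratio was lower, with log2 differences of -1.20, -3.48, -3.54, -0.62 and -1.17. Such a ratio can differ through either family, and miR-184 itself was not called in the fit over families.

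**Figure D4:**
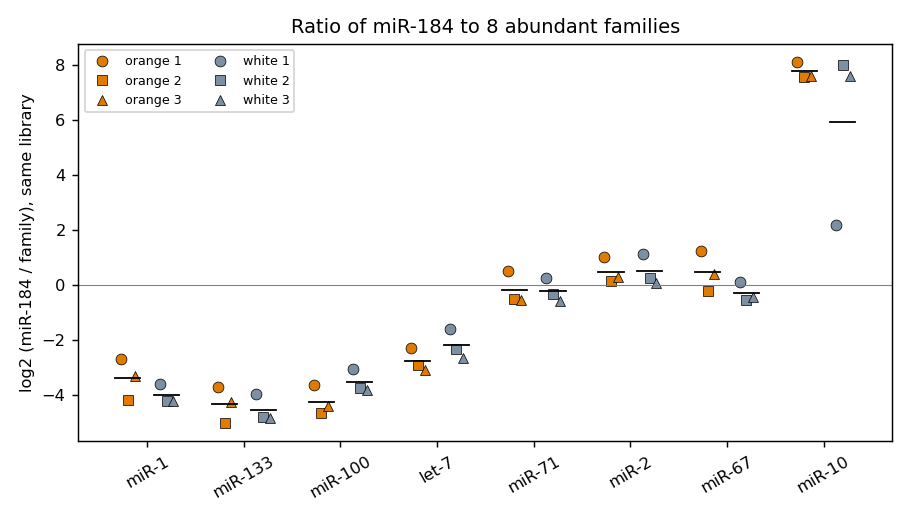
Log2 ratio of miR-184 to 8 abundant families in the same library, with orange libraries left of white ones, 1 symbol per replicate number and black lines for the group means. The groups overlap for all 8 families, and circles (replicate 1) lie highest within their group except for miR-10 in white muscle, where replicate 1 lies at 2.19.

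After TMM scaling, the spread of miR-184 between libraries was near the middle of that of the most abundant miRNAs. Its coefficient of variation in TMM-scaled CPM was 21.1% in orange and 16.1% in white muscle. Of the 14 other families in the top 10% by mean CPM, which ran from 3290 CPM (miR-99) to 252963 CPM (the predicted Contig117_4460) around the 11528 CPM of miR-184, 7 varied less in orange and 6 in white muscle. In orange muscle these ran from 12.8% for miR-2 to 91.0% for miR-99, and in white muscle from 8.63% for miR-99 to 33.1% for the predicted miRNA Contig632_21629.

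Over the 6 libraries, the families whose log2 CPM followed miR-184 most closely were miR-9 (Pearson r = 0.95), miR-8 (0.88), miR-981 (0.86) and the predicted Contig347_13229 (0.83) and Contig436_17051 (0.83), of 141 families compared. miR-9 is known from neurons and miR-8 from epithelia and sensory cells. These are descriptions over 6 points that share their libraries and scaling, 2 of which, both numbered 1, are high. miR-9 had 61.7, 5.58 and 9.51 CPM in orange replicates 1 to 3, and 32.3, 7.35 and 5.66 CPM in white replicates 1 to 3. For miR-8 the values were 607, 176 and 133 CPM in orange replicates 1 to 3, against 508, 99.5 and 93.3 CPM in white replicates 1 to 3. Both were several times higher in replicate 1 than in the others of each group, a wider swing than that of miR-184. The lowest correlation was -0.95, for Contig330_12509 and Contig417_15845, 2 predicted names with identical counts at 2.13 to 11.8 CPM.

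**Figure D5:**
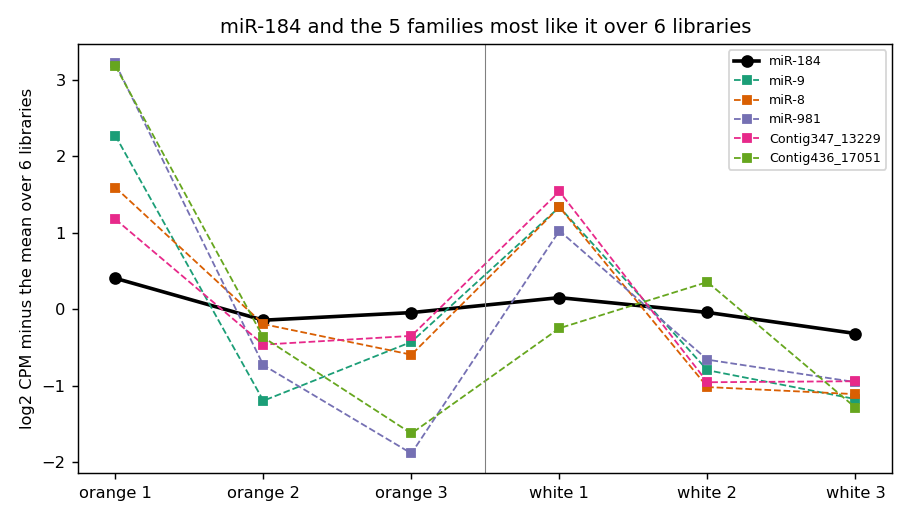
Log2 CPM of miR-184 (black) and of the 5 families most correlated with it, each minus its own mean over the 6 libraries, with orange libraries left of the line and white ones right of it. miR-184, miR-9, miR-8, miR-981 and Contig347_13229 are each highest in replicate 1 of both groups, and the swing of miR-184 is the smallest of the 6 lines.

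Being highest in replicate 1 of both groups held for 25 of the 142 fitted families (17.6%), miR-184 among them, and for 4 of the 4 epithelial and sensory families tested, 1 of 3 neural ones, 0 of 2 muscle ones, 0 of 2 gut and digestive gland ones and 0 of 1 ciliated cell family (miR-34). Immune cell families summed to at most 1.06 per 1000000, and 0 were tested. miR-200 and miR-141 of the epithelial list and miR-219 of the neural list had too few counts to be tested. The part of these other tissues in the level of miR-184 was not tested.

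In the list of miRNAs known from eye, lens, cornea and pigment cells, 5 of 9 families were tested (miR-184, miR-31, miR-137, miR-183 and miR-96). Of these, 0 passed in either direction, beside 13 of all 142 families (9.15%). The median log2 difference was 0.17 beside 0.20 over all 142 families. miR-204, miR-211 and miR-205 of that list had 0 counts or no row. miR-96, of ciliated sensory cells, had 1562, 1052 and 1485 CPM in orange replicates 1 to 3, and 2297, 651 and 551 CPM in white replicates 1 to 3. miR-183, its partner in one cluster in many animals, had 171, 106 and 110 CPM in orange replicates 1 to 3, and 393, 55.0 and 42.6 CPM in white replicates 1 to 3. For both, white replicate 1 was the highest library and the groups overlapped. The list of miRNAs of insect germ line and lipid regulation had 4 of 5 families tested (miR-184, bantam, miR-278 and miR-33). Here too 0 passed, beside 9.15% of all 142 families, and the median was -0.42 beside 0.20. With 4 families this difference in medians was not tested. bantam, which promotes growth in Drosophila, had 1735, 4008 and 1883 CPM in orange replicates 1 to 3, against 4844, 6176 and 4083 CPM in white replicates 1 to 3, and its log2 difference was -0.99 (SE 0.395, adjusted p = 0.160 by edgeR). Of 35 miRNAs conserved across bilaterians, 30 were tested, of which 2, miR-100 and miR-281, named after their values were seen, were higher in orange muscle (beside 4.93% of all 142 families) and 0 lower (beside 4.23%), with a median of 0.24, and miR-184 was not among the called.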

How the data were processed

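Small-RNA libraries from pooled adductor muscle (3 orange, 3 white) were analysed from a table of counts per miRNA name that the authors deposited without normalization, and a TPM table that the authors deposited, in which each value equalled the count over the column total times 1000000 within 5.00e-05. The sources used here give no aligner, no reference set and no counting rule. The TPM table has 9 further columns of per-sample values, which were not used, and 1 of their 3 names could also be read as Bohai Red. The p-values set the difference between the groups against the spread between pools. Wilson intervals cover counting error only and treat a count as a part of the limpet count, which was not established. The interval of the log2 difference covers the spread between pools.

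Families were represented by their most abundant row. Orange minus white was fitted over the whole table in edgeR (version 4.0.16, under R version 4.3.3; TMM, filterByExpr, glmQLFit with robust = TRUE, glmQLFTest), with Benjamini-Hochberg adjustment over the whole table and a threshold of 0.05; DESeq2 1.42.0 was an alternative. The edgeR fit was also run on simulated counts. Their rows were independent. Their simulated dispersion was below the one edgeR estimated for miR-184 in the fit over families (biological coefficient of variation 0.426). That estimate draws on the other families as well. The observed coefficient of variation of miR-184 in TMM-scaled CPM was lower, at 21.1% in orange and 16.1% in white muscle. The simulation therefore does not show the power for miR-184 in that fit or for rows taken to share reads. For shares and ratios an exact permutation test, two-sided, was run in scipy 1.17.1, for which the smallest p is 0.1. Likeness was the Pearson correlation of log2 CPM (prior count 2). Named were all miR-184 profiles with a mean of at least 10 counts, the 5 most and 2 least correlated families and the 3 families next above and below in share. The members and lists were chosen with earlier results of these data known.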

Additional observations from a re-analysis of the deposited data

How the results depend on the processing

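The log2 difference of miR-184 over families (0.15) passed under none of the 17 alternatives run, whose lowest adjusted p was 0.417, and its sign turned in 8. It was -0.13 with DESeq2 size factors, -0.020 with library totals, -0.57 with upper-quartile factors, -0.062 with no filter, -0.13 by the DESeq2 test, -0.13 without predicted miRNAs, -0.056 to 0.32 without each library in turn and -0.052 without both libraries numbered 1, an alternative chosen after the data were seen. The number of families called (13) was 20 with library totals, 29 with no filter, 33 by the DESeq2 test, 3 without predicted miRNAs and 0 to 20 without each library in turn (0 without white replicate 2 and 0 without white replicate 3, 20 without white replicate 1). The causes were not tested.

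No pairing of same-numbered libraries is given by the labels, and their deviations correlated at 0.20, -0.02 and 0.16 for numbers 1 to 3, so not every library correlated best with its own number. With the replicate block the log2 difference of miR-184 was 0.14 (adjusted p = 0.611, edgeR), and 12 families were called. Over merged rows the block gave 16 calls against 4, and lgi-miR-184 was at -0.44, not called. The count of merged rows called was 82 with library totals, 7 with DESeq2 size factors, 34 by the DESeq2 test, 0 with upper-quartile factors and 44 without predicted miRNAs.

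Single profiles reversed as follows. With upper-quartile factors the log2 differences of lgi-miR-184, bta-miR-184 (the human profile) and xla-miR-184-3p were 0.23, 0.24 and 0.087, and without predicted miRNAs 0.29, 0.28 and 0.11, with pma-miR-184 at 0.11. For cte-miR-184b it was -0.29 to 0.46 over the fits without 1 library and -0.056 without both libraries numbered 1. The number of miR-184 profiles called was 0 in every alternative but the removal of both libraries numbered 1 (18, which are not separate signals, with lgi-miR-184 at -0.64).

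The difference in share of miR-184 (-0.02 percentage points) was 0.061 with the most abundant row left out, 0.052 without predicted miRNAs and -0.28 to 0.19 without each library in turn. The difference in the human share of the limpet count (1.33) was -1.18 to 5.45 without each library in turn and 7.27 without both libraries numbered 1, and that of the frog share (-2.11) was -4.31 to 0.96, and 2.50 without both libraries numbered 1. Log2 ratio differences turned sign for miR-133 (-0.10 to 0.56 without each library), miR-71 (-0.32 to 0.26, and -0.080 without both libraries numbered 1), miR-2 (-0.29 to 0.31, 0.18 with sums over all names and 0.038 without both libraries numbered 1) and miR-10 (-0.025 to 2.87, and -0.20 without both libraries numbered 1). The mean rank of miR-184 (7.83) was 5 with sums over all names, where families with many names gain. Of the 5 most correlated families, 2 remained by Spearman correlation and 3 with library totals.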
